A study of Mus musculus with 24 samples.

Results

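The comparison described here sets extracellular vesicles (EVs) shed by IL-10-treated BV2 cells against the IL-10-treated BV2 cells themselves. It used 6 of the 24 libraries of the series, 3 of IL-10 EVs and 3 of IL-10 cells, chosen by their labels and not by any measured value. BV2 is an immortalised mouse microglial line, so each group is 1 cell line in culture and not primary microglia. The IL-10 cells received 50 ng/mL of interleukin-10 for 72 hours, and the IL-10 EVs came from BV2 cells given that treatment. The other libraries, 3 in each group, are EVs and cells after 100 ng/mL of LPS, EVs and cells after 50 ng/mL of TGF-β, and EVs and cells of the control condition. The time was 72 hours in every group. RNA was reverse transcribed and amplified with SMART-Seq v4 and Nextera XT in all of them, so the counts come from long cDNA and not from a small RNA protocol. The sources used here do not say how the vesicles were isolated, or whether the 3 libraries of a group are separate cultures. The p-values therefore reflect the spread between libraries only, and that spread may be technical.

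EVs are membrane-bound particles that cells release either from multivesicular endosomes or directly from the plasma membrane. They carry proteins and RNA, and microglia use them to pass material to neurons and to other glia. IL-10 is an anti-inflammatory cytokine that acts on microglia through the IL-10 receptor, the kinase JAK1 and the transcription factor STAT3, and SOCS3 is among the best known targets of that pathway.

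The IL-10 EV libraries were shallower and less complete than the IL-10 cell libraries. They held 5696991, 4629009 and 8617231 counts in IL-10 EVs, against 36317116, 34779403 and 34907588 in IL-10 cells. Over all EV libraries of the series the totals ran from 3019338 to 17978753 counts, and over all cell libraries from 26136825 to 42125153. Of the 13290 listed genes, 10363, 8370 and 8673 had a count in IL-10 EVs, against 12400, 12470 and 12411 in IL-10 cells. When the cell libraries were reduced by calculation to the depth of EV libraries 1, 2 and 3, they still held 11989.5, 11910.1 and 12123 genes on average, more than any EV library. The share of listed genes without a count was 31.3% ± 8.08 in IL-10 EVs and 6.49% ± 0.283 in IL-10 cells (SD, n = 3 each; two-sided exact permutation p = 0.1, the smallest that 3 against 3 libraries allow). A count of 0 allows a level of up to 0.527, 0.648 and 0.348 CPM (counts relative to the library total, the usual unit of depth-scaled expression) in the EV libraries and up to 0.0826 to 0.0863 CPM in the cell libraries, limits that cover counting error only. Across genes, log2(CPM + 1) of one EV library correlated with that of another at r = 0.793, 0.728 and 0.673, against 0.995 between cell libraries. EVs and cells correlated with each other at r = 0.657 to 0.735, a description over genes that are not independent replicates.

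A set of 9 genes that were above 20 CPM in all LPS cells and at or below 1 CPM in all other cells was also counted in EVs of other treatments. It includes Lcn2, which codes for the iron-siderophore binding protein lipocalin-2, and the chemokine gene Cxcl10. The 9 genes summed to 46.9, 17.9 and 643 CPM in IL-10 EVs, against 3.14, 3.25 and 2.87 CPM in IL-10 cells. The third IL-10 EV library stood apart, and Lcn2 alone had 40.4, 0 and 466 CPM in IL-10 EVs, against 0.413, 0.518 and 0.401 CPM in IL-10 cells. The same sum was 1310, 998 and 1236 CPM in LPS EVs, 52.4, 303 and 25.8 CPM in TGF-β EVs and 526, 70.3 and 358 CPM in control EVs. The part of these counts in the results was not tested. Where leaving out the third EV library ended or reversed a call, or moved a called value clearly, the value without it is given.

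Relative to the cells, IL-10 EVs were rich in transcripts of the ferritin light chain, of ribosomal proteins and of a set of genes that IL-10 cells hardly expressed. Lists of lysosomal, secreted and complement proteins held more lower calls than all genes did. At an adjusted p under 0.05 in edgeR's quasi-likelihood test, 857 of 11447 genes tested (7.49%) were higher in IL-10 EVs than in IL-10 cells and 1169 (10.2%) were lower. The median log2 difference over all genes tested was -0.35, so values are read against that level. Levels by gene are given as scaled CPM, which are CPM after TMM scaling of library sizes. More than 8-fold differences made up 390 of the higher and 885 of the lower calls. The 2 groups of libraries did not overlap for 5853 genes (51.1%). In bulk libraries, fewer vesicles that carry a transcript and fewer copies per vesicle cannot be told apart, nor can fewer cells of a type and less RNA per cell.

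The 2 directions rested on different kinds of data. Of the 1169 lower genes, 704 had no count in any IL-10 EV library, 123 were counted in 1 or 2 of them and 342 in all 3. Only 706 tested genes had no count in any IL-10 EV library, so nearly all of them were called lower. They entered the test through the cells alone, so these 704 calls describe absence and add no further support. They are also part of the 10.2% of all genes. In simulated data with the spread of these libraries, the test called unchanged genes mostly where a library had a count of 0. Higher and lower calls were not separated there. Its bearing on the 704 and 123 genes, and on the 12 largest falls named below, was not tested. Those calls are read with caution. Of the 857 higher genes, 787 had a count in all 6 libraries and 24 had none in any IL-10 cell library. Among the 6664 genes with a count in every library, a filter chosen after the data were seen, 1083 (16.3%) were higher and 519 (7.79%) were lower, with 777 higher and 340 lower genes called in both fits. Leaving out IL-10 cell library 1, 2 or 3 left 0 calls in either direction, with 2174, 2166 and 2197 genes at an unadjusted p under 0.05, while leaving out EV library 1, 2 or 3 gave 1062, 948 and 1929 higher and 2622, 1557 and 2493 lower genes. With the filter on every library, leaving out a cell library gave between 153 and 189 higher and between 36 and 42 lower genes.

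**Figure D1:**
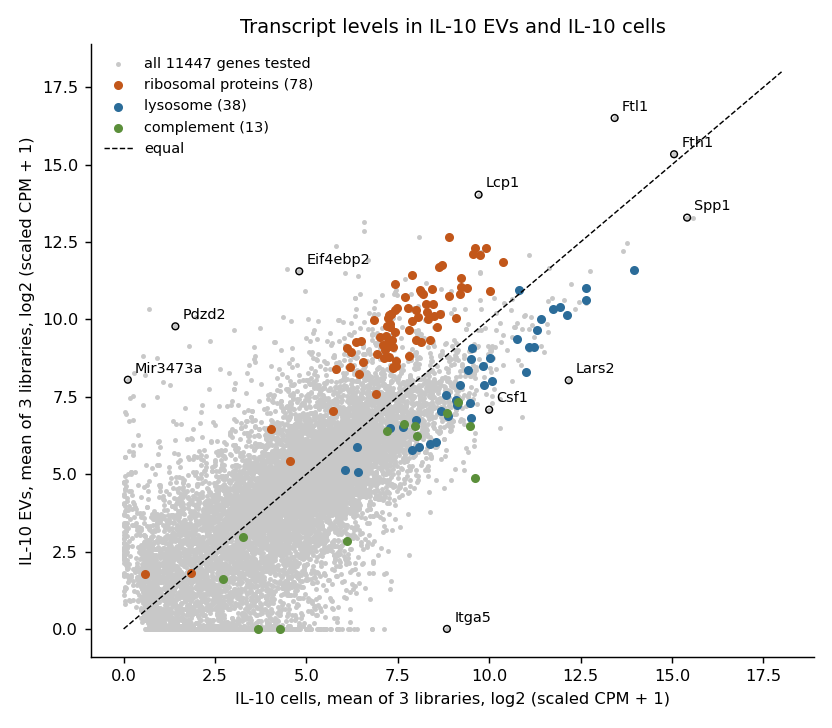
Mean level of each of the 11447 genes tested in IL-10 EVs (vertical axis) against IL-10 cells (horizontal axis), both as log2 of scaled CPM plus 1 over 3 libraries, with ribosomal protein, lysosomal and complement genes in colour and a dashed line of equal levels. Most ribosomal protein genes lie above the line, most lysosomal genes below it, and Itga5 sits on the bottom edge with no count in IL-10 EVs.

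The ferritin light chain gene Ftl1 was the most abundant transcript of the vesicles. Ferritin is the cell's iron store, built from light and heavy chains. Ftl1 took 10.9%, 9.71% and 5.77% of counts in IL-10 EVs, against 1.05%, 1.18% and 1.14% in IL-10 cells. Every EV library lay above every cell library, and the log2 difference was 3.08 (SE 0.44, adjusted p = 0.0184 in edgeR). The heavy chain gene Fth1 took 3.89%, 3.91% and 4.39% of counts in IL-10 EVs and 3.43%, 3.44% and 3.53% in IL-10 cells, and it did not pass the test (adjusted p = 0.514). The difference between the 2 chains was not tested. Ftl1 has near-identical pseudogene copies, so its count is uncertain to the extent that the counting split reads among them. Of 16 genes of iron handling tested, 2 were higher and 2 lower, counts too small to set apart from the 7.49% and 10.2% of all genes. The lower ones were Steap3, a ferrireductase, and Ncoa4, the receptor that sends ferritin to the lysosome. Steap3 had 2.35, 0 and 0.494 scaled CPM in IL-10 EVs, against 104, 106 and 110 in IL-10 cells (log2 difference -6.84, adjusted p = 0.0217, and -8.49 without EV library 1).

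Several messenger RNAs of moderate level in the cells were among the most abundant in the vesicles. Lcp1, which codes for the leukocyte actin-bundling protein L-plastin, had 26663, 17717 and 5820 scaled CPM in IL-10 EVs, against 948, 819 and 745 in IL-10 cells. Cep85, a centrosomal protein gene, had 14260, 9570 and 3399 in IL-10 EVs, against 102, 96.7 and 87.2 in IL-10 cells. The translation repressor gene Eif4ebp2 had 4362, 3310 and 1357 in IL-10 EVs, against 29.1, 24.4 and 27.4 in IL-10 cells. All 3 genes were high in every EV library, lowest in the third, and far from the cell values. The log2 differences were 4.32 for Lcp1 (SE 0.63, adjusted p = 0.0184), 6.57 for Cep85 (SE 0.66, adjusted p = 0.0183) and 6.80 for Eif4ebp2 (SE 0.57, adjusted p = 0.0183).

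The largest rises belonged to transcripts that IL-10 cells barely contained. Pdzd2, a PDZ-domain scaffold gene, had 1094, 1046 and 490 scaled CPM in IL-10 EVs, against 1.45, 1.19 and 2.37 in IL-10 cells. Arl5c, a small GTPase gene of the Arf-like family, had 1405, 1255 and 563 in IL-10 EVs, against 2.98, 2.44 and 3.48 in IL-10 cells. The gene model Gm17494 had 1625, 1520 and 734 in IL-10 EVs, against 0.724, 0.680 and 0.485 in IL-10 cells. In each case every EV value was far above every cell value, and the third EV library was the lowest of its group. The arachidonate lipoxygenase gene Alox8 had 39.2, 25.4 and 13.2 in IL-10 EVs and no count in IL-10 cells, which makes it at least 310-fold higher at a floor of 3 counts per library. Aldh1a3, a retinaldehyde dehydrogenase gene, had 133, 127 and 53.3 in IL-10 EVs, against 0.161, 0.0850 and 0.0856 in IL-10 cells (log2 difference 9.80, SE 0.73, adjusted p = 0.0157). Enah, Arhgef40, Unc13d, Dct, Rdh10, Snhg11 and Grin1os completed the 12 largest rises named by the rule, with adjusted p between 0.0183 and 0.0214 in edgeR.

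The locus of the microRNA gene Mir3473a stood among these transcripts. Its hairpin lies at chrX:162874918-162874995 on the minus strand, in an exon of Mir3473a and within the span of Syap1 but in no Syap1 exon. Below are the RefSeq sequences (GRCm38.p6), shown because the counts fall on this short locus. Capitals mark the seed in the mature microRNA, at chrX:162874920-162874937, and in the hairpin a run of 15 bases shared with other transcripts.
mmu-miR-3473a: uGGAGAGAuggcucagca
Mir3473a: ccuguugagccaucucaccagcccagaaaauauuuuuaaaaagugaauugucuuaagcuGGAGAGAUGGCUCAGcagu

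Mir3473a had 359, 284 and 150 scaled CPM in IL-10 EVs, against 0.0805, 0.113 and 0.0570 in IL-10 cells. Every EV library was above every cell library, with a log2 difference of 11.53 (SE 0.63, adjusted p = 0.0107). Because the protocol counts long cDNA, these are reads over the locus and not a level of the mature microRNA. The run GGAGAGATGGCTCAG also occurs in mouse B2 short interspersed repeats, so the counts may be shared with other loci and the value is uncertain. On the sense strand the run was present in transcripts of 40 of 854 higher genes (4.68%), of 22 of 1168 lower genes (1.88%) and of 345 of 11411 genes tested (3.02%). Among 162 genes higher by over 32-fold it was present in 15 (9.26%). On the antisense strand the shares were 3.86%, 3.94% and 3.45% for higher, lower and all genes tested. These shares describe the sequences and were given no test.

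**Figure D2:**
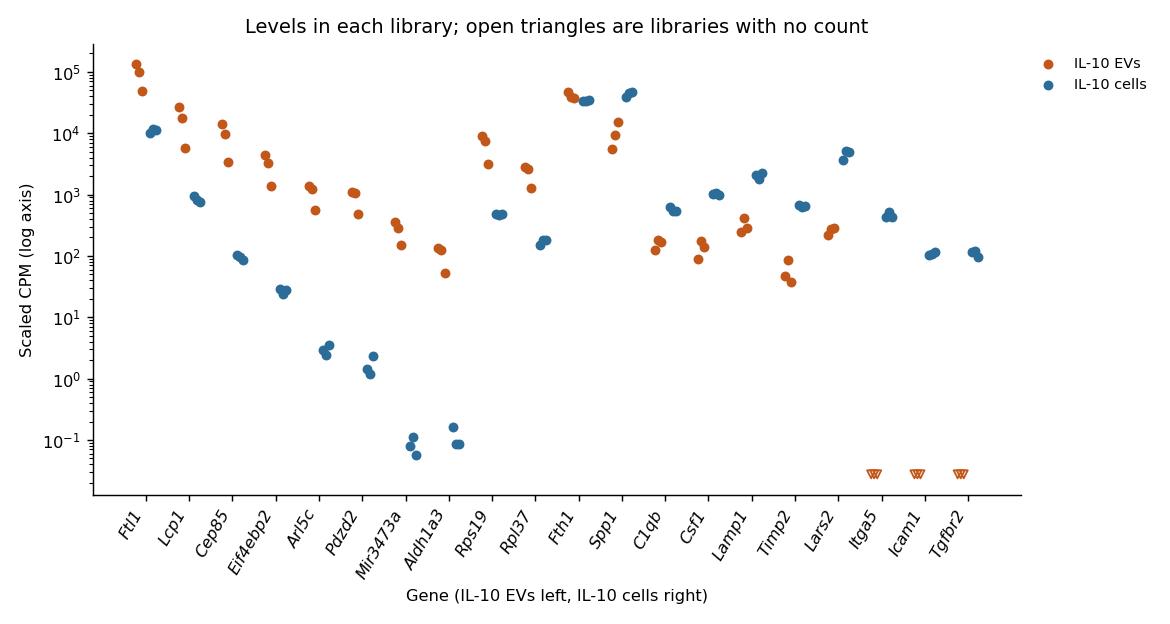
Scaled CPM on a log axis for 20 genes in each of 3 IL-10 EV libraries (left of each pair) and 3 IL-10 cell libraries (right), with open triangles for libraries with no count. Ftl1 to Rpl37 are higher in IL-10 EVs, Fth1 is close in both, Spp1 to Lars2 are lower, and Itga5, Icam1 and Tgfbr2 have no count in IL-10 EVs.

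Ribosomal protein genes were the gene list with the largest share of members that rose. Of 78 tested, 71 rose and 0 fell, at a median log2 difference of 2.12, against 7.49% higher and a median of -0.35 over all genes tested. Together they took 11.0%, 11.3% and 7.17% of counts in IL-10 EVs, against 2.15%, 2.22% and 2.28% in IL-10 cells (9.82% ± 2.30 and 2.22% ± 0.0642, SD, n = 3 each; two-sided exact permutation p = 0.1). Rps19, of the small subunit, had 8962, 7428 and 3099 scaled CPM in IL-10 EVs, against 477, 471 and 487 in IL-10 cells (log2 difference 3.76, SE 0.46, adjusted p = 0.0184). Rpl37, of the large subunit, had 2811, 2626 and 1292 in IL-10 EVs, against 154, 180 and 184 in IL-10 cells (log2 difference 3.70, SE 0.38, adjusted p = 0.0183). Neither gene's groups overlapped, and for both the third EV library was the lowest. Many ribosomal protein genes have processed pseudogenes, so single values are uncertain while the rise of the list as a whole spans 71 genes. With the filter on every library, 72 of 78 rose and 0 fell, against 16.3% and 7.79% of all genes.

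Messenger RNAs of ribosomal proteins are known for a 5′ terminal oligopyrimidine tract, a C at the first base followed by a run of pyrimidines, through which mTOR controls their translation. The annotated starts of 4 such genes follow, from RefSeq (GRCm38.p6), as 40 bases before and 15 bases from the start. They are shown because their tracts are intact at the annotated start, and capitals mark the tract.
Rps18: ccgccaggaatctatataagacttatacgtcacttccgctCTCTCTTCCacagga
Rps6: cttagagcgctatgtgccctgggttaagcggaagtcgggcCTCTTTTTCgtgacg
Rpl14: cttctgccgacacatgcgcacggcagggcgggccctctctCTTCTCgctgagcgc
Rps27: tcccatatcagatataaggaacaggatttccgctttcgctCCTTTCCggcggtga

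These windows lie at chr17:33955651-33955705 on the minus strand for Rps18, chr4:86857353-86857407 minus for Rps6, chr9:120571477-120571531 plus for Rpl14 and chr3:90213634-90213688 minus for Rps27. Rps18 had 5979, 5021 and 2417 scaled CPM in IL-10 EVs, against 765, 707 and 786 in IL-10 cells. Rps27 had 2134, 2010 and 951 in IL-10 EVs, against 172, 218 and 236 in IL-10 cells. Rps6 and Rpl14 rose by log2 differences of 2.76 and 2.65, and all 4 had an adjusted p of 0.0184. A C at the annotated start followed by at least 4 pyrimidines was found in 14 of 57 ribosomal protein genes with a window (24.6%) and in 253 of 8746 genes tested (2.89%). It was found in 22 of 525 other higher genes (4.19%), in 21 of 915 lower genes (2.30%) and in 823 of all 32851 windows (2.51%). The match needs the annotated start to be exact, and it describes letters in a window and not a control of these transcripts.

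Other gene groups of translation and RNA handling rose in part. Of 77 mitochondrial ribosomal protein genes, 10 rose and 0 fell (median 0.36), among them Mrpl9 with 304, 254 and 158 scaled CPM in IL-10 EVs, against 31.2, 31.4 and 36.7 in IL-10 cells. Of 65 translation factor genes, 8 rose and 2 fell (median -0.03), among them Eef1b2, a subunit of the elongation factor that recharges eEF1A with GTP, by 2.50 on the log2 scale (adjusted p = 0.0201). Of 79 nuclear-encoded respiratory chain genes, 10 rose and 1 fell (median 0.14), among them the ATP synthase gene Atp5a1 by 1.78 (adjusted p = 0.0184). Most members of these 3 lists did not pass. Their shares were above the 7.49% of all genes, but with the filter on every library 10 of 71, 10 of 56 and 10 of 77 rose, against 16.3% of all genes, so the lists did not stand out there. Of 11 snoRNA host genes, 5 rose and 0 fell (median 2.29). Gas5, a growth-arrest associated long non-coding RNA, had 163, 200 and 94.6 in IL-10 EVs, against 30.9, 41.2 and 46.8 in IL-10 cells. Of 24 genes for RNA-binding proteins linked in other work to RNA sorting into vesicles, 7 rose and 3 fell (median 0.87). The cold-shock protein gene Ybx3 had 369, 290 and 131 in IL-10 EVs, against 27.9, 17.1 and 46.5 in IL-10 cells, and the vault protein gene Mvp fell by 1.46 (adjusted p = 0.0184). Of 40 genes of DNA replication and mitosis, 5 rose and 0 fell (median -0.05), and with the filter on every library 5 of 29 rose, near the 16.3% of all genes. The ribonucleotide reductase gene Rrm2 had 422, 208 and 243 in IL-10 EVs, against 32.2, 23.7 and 24.2 in IL-10 cells.

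A group of transcripts well expressed in IL-10 cells was not counted in IL-10 EVs. Of 3291 genes at or above 50 CPM in every IL-10 cell library, 2850 (86.6%) were counted in all IL-10 EV libraries, 371 were missing from 1, 56 from 2 and 14 from all 3. They were missing from EV libraries 1, 2 and 3 in 54, 296 and 175 cases, so most gaps were in libraries 2 and 3. The same was counted for genes of that level in the cells of each other treatment. It was 3630 of 3643 genes (99.6%) in LPS EVs, 2685 of 3457 (77.7%) in TGF-β EVs and 3202 of 3579 (89.5%) in control EVs, so such gaps were also present in control and TGF-β EVs. Itga5, the integrin subunit of the fibronectin receptor, had 0, 0 and 0 in IL-10 EVs, against 434, 515 and 428 scaled CPM in IL-10 cells, at least 865-fold lower at 3 counts per library. Icam1, an adhesion ligand for leukocyte integrins, had no count in IL-10 EVs, against 105, 108 and 118 in IL-10 cells (at least 208-fold lower), and Tgfbr2, the type II TGF-β receptor, had none against 114, 120 and 97.4 (at least 208-fold lower). Gtf3c1, a TFIIIC subunit gene of RNA polymerase III initiation, was at least 259-fold lower. Trappc11, Man2c1, Vipas39, Mctp1, Heatr5b, Tbc1d9, Abca2 and Hyou1 made up the rest of the 12 largest falls, with lower bounds between 108 and 156-fold. Trappc11, Vipas39, Heatr5b and Tbc1d9 act in membrane traffic, Abca2 is a lysosomal transporter and Hyou1 an endoplasmic reticulum chaperone. All 12 are among the genes with no EV count, and each had an adjusted p of 0.0112 to 0.0184 in edgeR. Nearly all tested genes of that kind were called lower, so these calls describe absence.

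Some transcripts nearly missing from IL-10 EVs were still counted in all 3 libraries, and the following were chosen after their values were seen. Ptov1 had 0.853, 1.09 and 1.88 scaled CPM in IL-10 EVs, against 71.7, 64.8 and 78.5 in IL-10 cells (log2 difference -5.79, SE 0.56, adjusted p = 0.0183). Brpf1, of a histone acetyltransferase complex, had 1.49, 1.75 and 2.37 in IL-10 EVs, against 64.0, 60.8 and 59.7 in IL-10 cells. Prkaca, the catalytic subunit of protein kinase A, had 5.76, 1.97 and 3.16 in IL-10 EVs, against 110, 93.1 and 135 in IL-10 cells. For all 3 genes every EV library was far below every cell library.

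The leucyl-tRNA synthetase gene Lars2 had the lowest edgeR p among abundant lower transcripts named here. In mouse its transcript shares sequence with ribosomal RNA, so its counts are uncertain. It had 221, 273 and 290 scaled CPM in IL-10 EVs, against 3726, 5131 and 5043 in IL-10 cells (log2 difference -4.15, SE 0.27, adjusted p = 0.0107). Of 5 entries that hold ribosomal RNA repeats, Lars2 included, 3 fell and 0 rose (median -3.82). Gm26917 had 63.1, 67.1 and 135 in IL-10 EVs, against 1169, 1479 and 1091 in IL-10 cells. The 5 entries together took 0.157%, 0.748% and 0.188% of counts in IL-10 EVs, against 0.942%, 1.23% and 1.16% in IL-10 cells (two-sided exact permutation p = 0.1). For the 10 mitochondrially encoded protein genes, 0 passed in either direction (median -0.93), and their share was 0.0230%, 0.0509% and 0.202% in IL-10 EVs, against 0.197%, 0.166% and 0.179% in IL-10 cells (two-sided exact permutation p = 0.4). The third EV library was above all cell libraries in that share and the other two were below them.

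Lysosomal transcripts were lower in IL-10 EVs. Of 38 lysosomal genes tested, 9 fell and 0 rose (median -1.63), against 10.2% lower over all genes, and 13 fell and 0 rose with the filter on every library, against 7.79%. Their sum was 1.08%, 1.73% and 3.77% of counts in IL-10 EVs, against 6.94%, 6.98% and 6.96% in IL-10 cells (two-sided exact permutation p = 0.1). Lamp1, the main lysosomal membrane glycoprotein gene, had 241, 413 and 290 scaled CPM in IL-10 EVs, against 2075, 1830 and 2242 in IL-10 cells (log2 difference -2.70, SE 0.28, adjusted p = 0.0183). Psap, the precursor of the sphingolipid activator proteins, had 1329, 1060 and 2307 in IL-10 EVs, against 6219, 6713 and 6512 in IL-10 cells. Hexa, a subunit of an enzyme that degrades gangliosides, fell by 1.27 on the log2 scale (adjusted p = 0.0184). Every named member was lower in every EV library, and the sum was highest in the third EV library.

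Transcripts of secreted proteins shifted the same way. Of 28 tested, 10 fell and 0 rose (median -1.51), against 10.2% and 7.49% of all genes. With the filter on every library 10 of 21 fell and 0 rose, against 7.79% and 16.3%. The list took 1.20%, 2.47% and 5.21% of counts in IL-10 EVs, against 8.59%, 9.48% and 9.61% in IL-10 cells (two-sided exact permutation p = 0.1). Csf1, the growth factor on which microglia depend, had 89.3, 176 and 139 scaled CPM in IL-10 EVs, against 1038, 1049 and 983 in IL-10 cells (log2 difference -2.93, SE 0.31, adjusted p = 0.0183). Timp2, an inhibitor of matrix metalloproteinases, had 46.9, 85.5 and 37.5 in IL-10 EVs, against 683, 633 and 662 in IL-10 cells (log2 difference -3.54, SE 0.38, adjusted p = 0.0183). Spp1, coding for osteopontin and the most abundant of these transcripts, had 5494, 9414 and 15127 in IL-10 EVs, against 38498, 45123 and 47575 in IL-10 cells. Its log2 difference was -2.13 (SE 0.43, adjusted p = 0.0242), and without the second EV library the adjusted p was 0.0755.

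**Figure D3:**
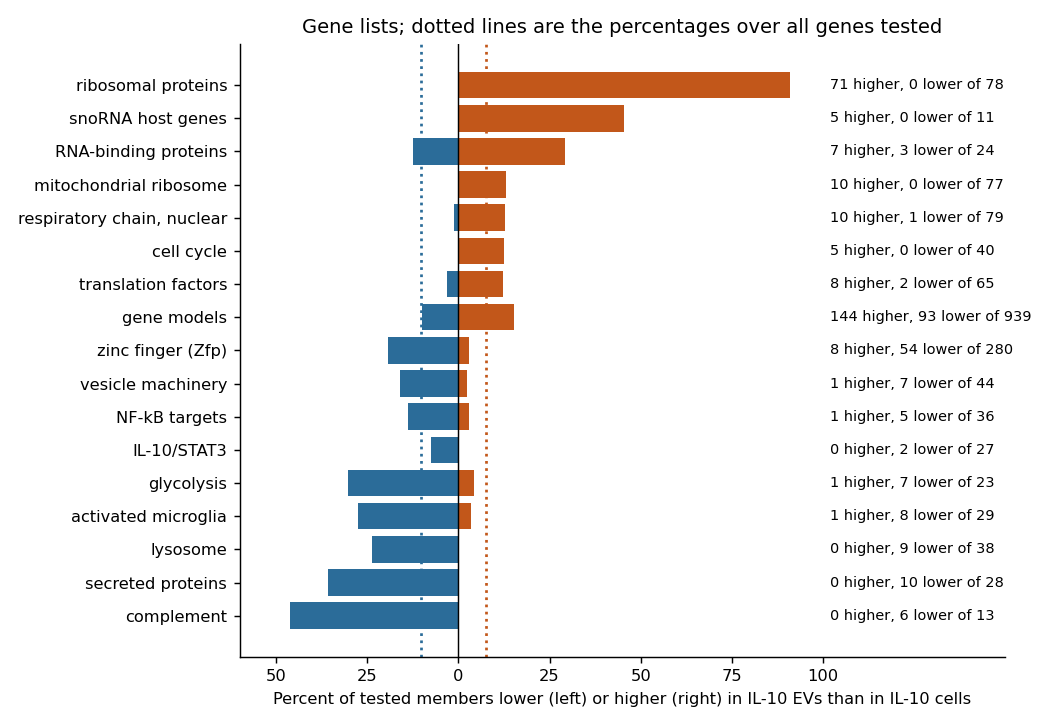
Percent of tested members of 17 gene lists that were lower (left) or higher (right) in IL-10 EVs than in IL-10 cells at an edgeR adjusted p under 0.05, with the counts at the right and dotted lines at 10.2% and 7.49%, the percentages over all 11447 genes tested. Ribosomal proteins stand out on the right, and complement, secreted, glycolysis and activated microglia genes extend farthest to the left.

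Complement genes and genes of activated microglia were also on the lower side. Over all genes tested 10.2% fell and 7.49% rose, at a median of -0.35. Of 13 complement genes tested, 6 fell, 2 of them with no count in IL-10 EVs, and 0 rose (median -1.84). C1ra, which encodes a C1r protease of the C1 complex, was among the genes that fell and had no count in IL-10 EVs. C1qb, a chain of the C1q recognition complex, had 127, 183 and 167 scaled CPM in IL-10 EVs, against 624, 544 and 545 in IL-10 cells (log2 difference -1.84, SE 0.23, adjusted p = 0.0184). C3ar1, the C3a receptor, fell by 1.44 (adjusted p = 0.0184). Of 29 genes associated with disease-associated microglia, 8 fell and 1 rose (median -1.29). Itgax, the integrin chain CD11c, had 71.6, 50.0 and 155 in IL-10 EVs, against 702, 735 and 701 in IL-10 cells (log2 difference -2.95, and -3.57 without EV library 3). The cathepsin gene Ctsl fell by 1.98 (adjusted p = 0.0214, and 0.0620 without the second EV library). Csf1, Timp2 and Ctsl belong to more than one list, so these counts are not independent. Of 23 genes of glycolysis and hypoxia, 7 fell and 1 rose (median -1.02), and the hexokinase gene Hk2 had 26.6, 20.3 and 12.4 in IL-10 EVs, against 93.9, 93.7 and 82.4 in IL-10 cells. With the filter on every library, 4 of 8 complement genes fell, against 7.79% of all genes. There 9 of 28 disease-associated microglia genes and 8 of 21 glycolysis genes fell, and 1 of each rose, against 16.3% of all genes.

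**Figure D4:**
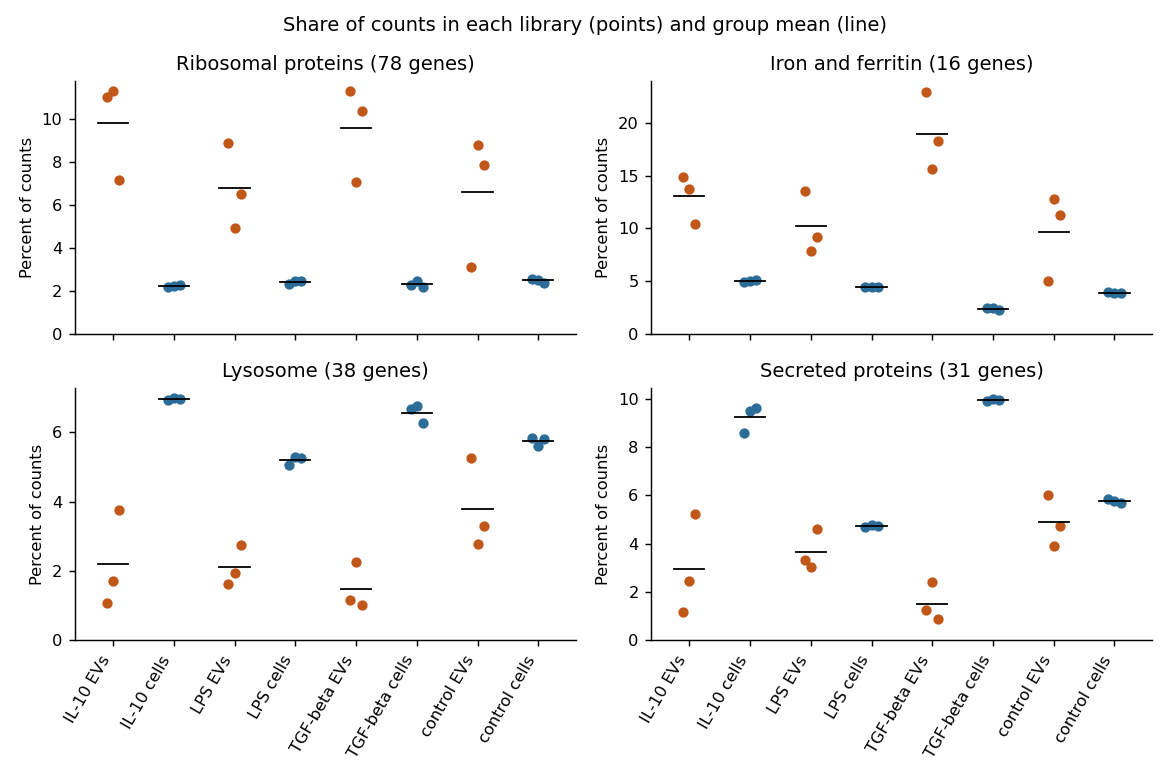
Percent of counts taken by ribosomal protein, iron and ferritin, lysosomal and secreted protein genes in each library (points) of the 4 treatments, EVs left of their cells, with the group mean as a line. In IL-10 EVs the first 2 groups of genes lie above IL-10 cells in every library and the last 2 below them, and for ribosomal, ferritin and lysosomal genes the first control EV library is the EV library nearest to its own cells.

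The genes of the IL-10 pathway itself were not enriched in IL-10 EVs by this test. Of 27 genes of the IL-10 receptor, STAT3 and its targets, 0 rose and 2 fell (7.49% and 10.2% over all genes), at a median of -1.30. With the filter on every library 6 of 18 fell and 0 rose, against 7.79% and 16.3% of all genes. The 2 that fell were Jak1, the kinase on the IL-10 receptor, and Il4ra, the interleukin-4 receptor chain. Jak1 had 52.7, 106 and 162 scaled CPM in IL-10 EVs, against 658, 620 and 602 in IL-10 cells (log2 difference -2.55, SE 0.44, adjusted p = 0.0184). Stat3 had 82.7, 70.6 and 188 in IL-10 EVs and 330, 344 and 331 in IL-10 cells (adjusted p = 0.0622). Socs3, the feedback inhibitor, had 74.2, 90.0 and 17.5 in IL-10 EVs and 205, 225 and 208 in IL-10 cells (adjusted p = 0.110). For both genes every EV library was below every cell library, and neither passed the test. The receptor gene Il10ra had 28.4, 0 and 57.2 in IL-10 EVs and 55.4, 61.1 and 58.3 in IL-10 cells (adjusted p = 0.755). Saa3, an acute-phase gene, had 344, 279 and 1935 in IL-10 EVs and 784, 883 and 1160 in IL-10 cells (adjusted p = 0.935), and the third EV library was the one above the cells.

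The genes that IL-10 raised in cells could also be followed into the vesicles. In IL-10 cells against control cells, 192 of 11790 genes (1.63%) were higher by over 2-fold at an adjusted p under 0.05. This list was chosen with the IL-10 cell libraries that also serve in the comparison of EVs and cells, so it is set here only against EVs of the control condition. Of the 192 genes, 70 (36.5%) had a count in all IL-10 EV libraries and 69 in all control EV libraries, against 6609 (56.1%) and 6656 of the 11790 genes tested in cells. Of the 101 that could be tested between IL-10 EVs and control EVs, 48 (47.5%) had a log2 difference above 0, against 47.9% of all genes, and the median was -0.12 against -0.06. None passed the edgeR test in EVs, where 0 of 8992 genes passed in either direction (0%) and 177 had an unadjusted p under 0.05. DESeq2 called 20 higher and 25 lower genes among the 8992. Among the raised genes, 1 was higher and 4 were lower at an unadjusted p under 0.05.

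The choice of the list fixes that its genes were higher in IL-10 cells, so the examples are a description, and no test was made of the difference between cells and vesicles. The cathepsin gene Ctsb had 716, 2560 and 6923 CPM in IL-10 EVs and 9334, 4057 and 5825 CPM in control EVs, while the cells had 16287, 16022 and 16000 CPM after IL-10 and 9008, 8083 and 8960 CPM in control. Clu, the gene of the chaperone clusterin, had 73.2, 242 and 282 CPM in IL-10 EVs and 459, 272 and 344 CPM in control EVs, while the cells had 977, 982 and 984 CPM after IL-10 and 459, 457 and 465 CPM in control. C1qb had 104, 181 and 197 CPM in IL-10 EVs and 135, 271 and 299 CPM in control EVs, while the cells had 641, 552 and 547 CPM after IL-10 and 110, 122 and 99.2 CPM in control. The libraries of IL-10 EVs and control EVs overlapped for all 3 genes. All 3 had a lower mean in IL-10 EVs than in control EVs. Over the 192 raised genes, 84 had a higher and 85 a lower mean in IL-10 EVs. Saa3 had 1415, 321 and 1395 CPM in control EVs, while control cells had 7.88, 6.83 and 6.88 CPM. Its relation to the counts of LPS-cell genes given above was not tested.

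**Figure D5:**
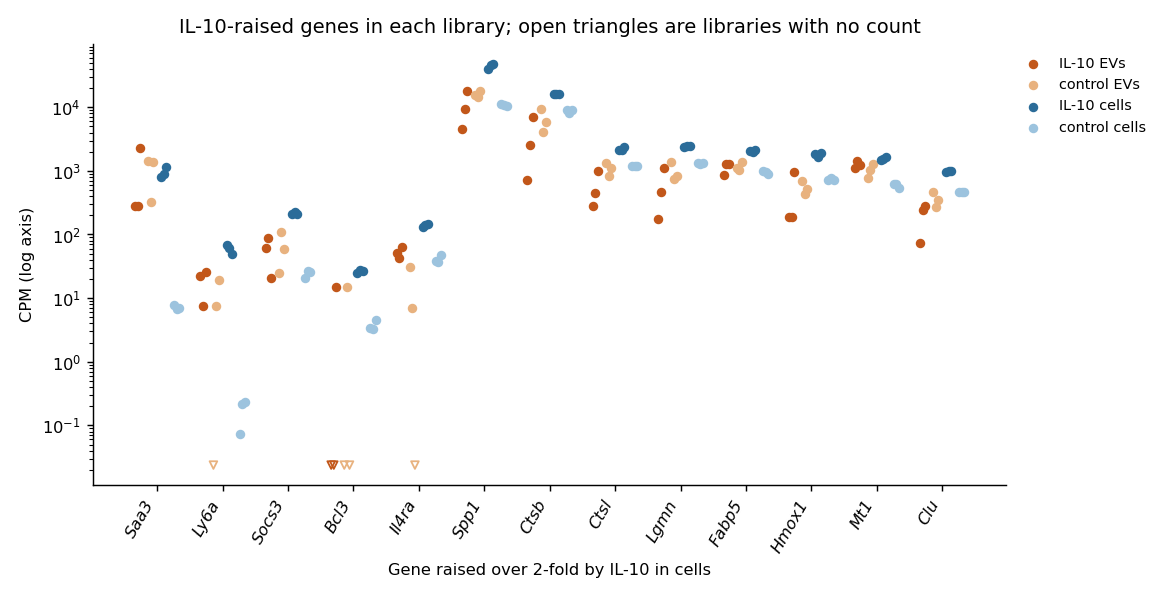
CPM on a log axis of 13 genes raised over 2-fold by IL-10 in cells, in each library of IL-10 EVs, control EVs, IL-10 cells and control cells (left to right within each gene), with open triangles for libraries with no count. IL-10 cells lie above control cells for every gene shown, as the choice of the genes requires, and the libraries of IL-10 EVs and control EVs overlap for every gene but Il4ra.

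Few markers of vesicle formation passed the test in the vesicle RNA. Of 44 genes for tetraspanins, annexins, ESCRT components and other parts of vesicle formation, 1 rose and 7 fell (median -1.10), against 7.49% and 10.2% of all genes, and with the filter on every library 1 rose and 8 fell of 38, against 16.3% and 7.79%. Anxa4, a calcium-dependent membrane-binding annexin, had 119, 244 and 287 scaled CPM in IL-10 EVs, against 1057, 1124 and 1163 in IL-10 cells (log2 difference -2.36, SE 0.37, adjusted p = 0.0184). Anxa2 fell by 1.35 (adjusted p = 0.0184), and the small GTPase gene Arf6 fell by 3.32 (adjusted p = 0.0184). The tetraspanin genes whose proteins serve as vesicle markers did not pass. Cd63 had 517, 735 and 1214 in IL-10 EVs and 1788, 1918 and 2027 in IL-10 cells (adjusted p = 0.0734), and Cd9 and Cd81 had adjusted p of 0.127 and 0.0995.

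The label of the samples was checked against microglial markers. The 13 microglia or macrophage marker genes took 0.220%, 0.272% and 0.583% of counts in IL-10 EVs, against 0.710%, 0.704% and 0.706% in IL-10 cells, and 0 of 12 tested rose or fell (median -0.98). Csf1r, the receptor for CSF1, had 50.3, 0.219 and 264 scaled CPM in IL-10 EVs and 539, 510 and 493 in IL-10 cells (adjusted p = 0.453). The homeostatic marker Tmem119 had 21.7, 0 and 33.2 in IL-10 EVs and 9.82, 10.5 and 9.36 in IL-10 cells (adjusted p = 0.800), a low level in a line known to express little of it. Marker lists of 12 other cell types took at most 0.00181% of counts in any IL-10 EV library, and 4 of them listed no gene. Only 1 fibroblast, 2 endothelial, 1 T cell and 2 B cell markers were among the listed genes. The fibroblast gene was at 0 in all 6 libraries. Endothelial, T cell and B cell markers were at 0 in all IL-10 EVs but had counts in every IL-10 cell library. The T cell gene took 0.000207%, 0.000161% and 0.000100% of counts in IL-10 cells and was called lower in EVs. So few genes at such low levels say little about identity.

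Immune response genes changed in both directions, against 7.49% higher and 10.2% lower over all genes. Of 36 TLR4 and NF-kB response genes, 1 rose and 5 fell, and 4 of the 5, among them Icam1, Tnfaip3 and Ptgs2, had no count in IL-10 EVs, while the median was 0.59. With the filter on every library 4 of 18 rose and 1 fell (median 0.83), against 16.3% and 7.79% of all genes. These counts are too small to set apart from those shares. The one that rose over all genes tested was the chemokine gene Ccl9, with 94.0, 133 and 112 scaled CPM in IL-10 EVs, against 22.8, 18.0 and 21.7 in IL-10 cells. Of 41 interferon-stimulated genes, 1 rose and 6 fell (median -0.44), and the one that rose was the antiviral GTPase gene Mx1, by 6.20 (adjusted p = 0.0184). With the filter on every library 1 of 21 rose and 1 fell (median 0.09). Of 22 genes of MHC class I and peptide loading, 1 rose and 3 fell (median -1.55), near the shares over all genes, and with the filter on every library 0 of 19 rose and 5 fell. The class I heavy chain gene H2-D1 had 841, 998 and 2606 in IL-10 EVs, against 5878, 6696 and 6706 in IL-10 cells (log2 difference -2.12, and -2.82 without EV library 3; adjusted p = 0.0393, and 0.0564 and 0.0948 without EV library 1 or 2). Of 280 zinc finger genes of the Zfp family, 8 rose and 54 fell, and 51 of the 54 had no count in IL-10 EVs. With the filter on every library 14 of 83 rose and 1 fell, against 16.3% and 7.79% of all genes. All 51 Zfp genes tested without an EV count were called lower, and that filter removes them by its rule. It therefore cannot show whether the family held an excess of lower genes.

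Higher and lower genes differed in kind and length. Gene models with a database name only rose in 144 and fell in 93 of 939 cases (median 0.83), against 7.49% and 10.2% of all genes. With the filter on every library 161 rose and 9 fell of 436, against 16.3% and 7.79%. Protein-coding genes made up 80.7% of the higher genes, 94.2% of the lower genes and 92.1% of those tested. Pseudogenes made up 5.95%, 1.37% and 2.90%, and non-coding genes 12.4%, 4.02% and 4.53%. The median span of a gene on the genome was 12498 bases for higher genes, 24569 for lower genes and 22020 for all tested. The median total exon length was 3647 bases for higher, 4636 for lower and 4335 for all tested genes, by the GENCODE M21 annotation.

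Vesicles of the other treatments share no library with this comparison. Of the 857 genes higher in IL-10 EVs, 836 were tested for TGF-β EVs against TGF-β cells. There 828 had a log2 difference above 0, against 39.6% of all genes, and 639 were called higher, against 9.42%. For LPS EVs against LPS cells, 755 of 855 were above 0 and 497 were called higher, against 53.6% and 25.3% of all genes. For control EVs against control cells, 771 of 794 were above 0 and 82 were called higher, against 42.4% and 1.23% of all genes. Of the 1169 lower genes, 351 of 1084 tested were called lower for TGF-β EVs (8.99% of all genes), 293 of 1149 for LPS EVs (15.2%) and 321 of 1122 for control EVs (9.43%). Cep85 had 9602, 8451 and 11730 CPM in TGF-β EVs, 6145, 3460 and 4373 CPM in LPS EVs and 406, 9025 and 6572 CPM in control EVs. Mir3473a had 171, 78.2 and 149 CPM in TGF-β EVs, 200.0, 86.4 and 140 CPM in LPS EVs and 8.73, 213 and 172 CPM in control EVs. The first control EV library stood apart from the other EV libraries for both genes. Of the 704 lower genes with no count in IL-10 EVs, 442 had a count in TGF-β EVs, 701 in LPS EVs and 422 in control EVs. Single LPS EV libraries lacked a count for only 4.42%, 0.489% and 1.21% of all listed genes. Those shares were 50%, 19.6% and 27.1% in TGF-β EVs and 29.0%, 33.1% and 33.5% in control EVs.

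The difference between EVs and cells was compared across treatments as an interaction in edgeR. Against control, 13 of 11930 genes (0.109%) had a higher EV-to-cell ratio after IL-10 and 21 (0.176%) a lower one. Of these 34 genes, 28 had no count in one of the EV groups, and with the filter on every library 0 were higher and 1 was lower. Without the first control EV library 102 were higher and 58 lower, and leaving out any control cell library left at most 1 higher and 2 lower. Itga5 had no count in IL-10 EVs, while control EVs had 209, 138 and 164 CPM, and the cells were alike at 445, 522 and 430 CPM after IL-10 and 490, 411 and 491 CPM in control (adjusted p = 2.44e-05). Icam1 had none in IL-10 EVs, while control EVs had 58.0, 47.1 and 90.4 CPM (adjusted p = 0.000675), and Mctp1, a calcium-binding C2-domain protein gene, had none against 21.6, 57.6 and 89.7 CPM (adjusted p = 0.00627). For these 2 genes the cells differed as well. Icam1 had 108, 110 and 119 CPM in IL-10 cells and 74.4, 78.2 and 73.9 CPM in control cells. Mctp1 had 61.4, 76.3 and 72.5 CPM in IL-10 cells and 34.9, 34.1 and 38.0 CPM in control cells. In the other direction Rpap1, an RNA polymerase II-associated protein gene, had 45.1, 17.5 and 77.5 CPM in IL-10 EVs and no count in control EVs (adjusted p = 0.00627). Cds1 and R3hcc1 showed the same pattern (adjusted p = 0.0190 and 0.0265). Leaving out control cell library 3 moved Rpap1 to an adjusted p of 0.0509, and leaving out any control cell library moved Mctp1 to up to 0.0781. Leaving out any cell library of either treatment moved Cds1 and R3hcc1 to up to 0.151 and 0.170. Set directly against control EVs, Itga5 in IL-10 EVs did not pass (adjusted p = 0.295).

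Against LPS the interaction called 329 of 13248 genes higher (2.48%) and 1831 lower (13.8%). LPS EVs held counts for nearly all genes, and 1247 of the 2160 calls had no count in one of the EV groups, 1246 of them in IL-10 EVs. With the filter on every library, 207 of 6585 genes (3.14%) were higher and 142 (2.16%) lower, 5.3% in all. That filter removes every call with no count in an EV group, so it cannot decide whether the excess of lower calls was real. Slc44a3, of the choline transporter-like family, had no count in IL-10 EVs and 0.138, 0.431 and 0.258 CPM in IL-10 cells, while LPS EVs had 18.5, 40.7 and 11.9 CPM and LPS cells had no count (adjusted p = 0.00274). It entered the test through LPS EVs, where it was high, so its call is a description only. Lcn2 was called higher (adjusted p = 0.00711) on 40.4, 0 and 466 CPM in IL-10 EVs and 331, 313 and 408 CPM in LPS EVs, while the cells had 0.413, 0.518 and 0.401 CPM after IL-10 and 1627, 1924 and 1889 CPM after LPS. The EV groups overlapped and the cells were far apart, as the choice of the LPS-cell genes requires. Lcn2 is one of the LPS-cell genes described above, and the part of those counts in this call was not tested. Against TGF-β, 0 of 11855 genes passed in either direction (0%), with 1037 at an unadjusted p under 0.05 and 170 higher and 248 lower by DESeq2. The lowest adjusted p there was 0.0859, for Cnot10 and Cybc1. For ribosomal proteins 0 of 78 passed in any of the 3 interactions.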

How the data were processed

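The authors deposited whole-number read counts per gene in tables of 13290 genes; per the submitters' processing notes DESeq2 was used, and the aligner, counter and genome assembly were not given in the sources used here. IL-10 EV and IL-10 cell columns, which name a group but no sample title, were joined by row. No listed gene totals under 240 counts over the 24 libraries, so rare transcripts were not analysed here; 16 names that are numbers and 6 entries with repeated symbols were left out of naming.

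Counts were tested with edgeR 4.0.16 in R 4.3.3 (TMM, filterByExpr, robust quasi-likelihood, Benjamini-Hochberg over all genes tested, threshold 0.05), on the libraries of each comparison alone, with no covariate. DESeq2 1.42.0, limma 3.58.1 voom, other scalings and filters, all 24 libraries and leaving out each library were alternatives. The fit was tested on simulated data with the spread of these libraries. It called unchanged genes mostly where a library had a count of 0. It called far fewer with a count required in every library, which is why that filter stands beside the first. Shares were compared by two-sided exact permutation. Annotation came from GENCODE M21, sequences from RefSeq. SciPy 1.17.1 and matplotlib 3.10.9 served in Python 3.11.15.

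The comparison and its gene lists were chosen with earlier results of these data known. Named genes followed a rule: the 12 largest rises and falls past the threshold, counting only genes whose higher group averaged 50 counts or more and whose groups did not overlap, the 5 largest among database-named models, the 10 highest shares, up to 4 per list by adjusted p, 3 per direction of each interaction, the 8 most abundant IL-10-raised genes, and a fixed set including Ftl1, Socs3, Stat3 and Cd63. Exceptions are named where they occur, and some genes the rule picks are not reported here.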

Additional observations from a re-analysis of the deposited data

Results flagged for a closer look

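The EV-to-cell difference after IL-10 differed from that in control by the interaction test for 13 higher and 21 lower genes. For Itga5, Icam1 and Mctp1, absent from IL-10 EVs and counted in all control EVs, the adjusted p in edgeR was 2.44e-05, 0.000675 and 0.00627. For Rpap1, Cds1 and R3hcc1, counted in all IL-10 EVs and absent from control EVs, it was 0.00627, 0.0190 and 0.0265. Leaving out 1 library at a time moved Rpap1 to between 0.00107 and 0.0509, Cds1 to between 0.00476 and 0.151 and Mctp1 to between 0.00118 and 0.0781, while Itga5 and Icam1 stayed under 0.05.

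Against LPS the same test differed for 329 higher and 1831 lower genes. Loxl2, Lcn2 and Siglece had a higher EV-to-cell ratio at adjusted p of 0.00328, 0.00711 and 0.0499 in edgeR. Loxl2 had 3.34, 4.75 and 1.62 CPM in IL-10 EVs and 4.58, 2.32 and 2.55 CPM in LPS EVs, which overlap. Its cells had no count after IL-10 and 1.21, 1.50 and 1.89 CPM after LPS. Siglece had 0, 0 and 30.3 CPM in IL-10 EVs, against 0.229, 0.662 and 7.64 CPM in LPS EVs, so 1 library carries it. The cells had 0.110, 0 and 0.0286 CPM of Siglece after IL-10 and 14.0, 16.4 and 16.2 CPM after LPS. Slc44a3 and Adamts15 were lower at adjusted p of 0.00274 and 0.0232, with no count in IL-10 EVs. Both were high in LPS EVs only and entered the test through those libraries, so their calls are a description and add no support. Adamts15 had 10.3, 49.3 and 22.9 CPM in LPS EVs and no count in LPS cells. Its call was lost without the second IL-10 cell library (adjusted p = 0.9998) and without LPS EV library 2 or 3. Leaving out 1 library at a time moved Slc44a3, Loxl2 and Lcn2 to adjusted p of at most 0.0143, 0.0148 and 0.0281, and Siglece lost its call in most such fits, at up to 0.907. Groups of 3 libraries are too small for a test of single outlying libraries, so none was made.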

How the results depend on the processing

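For IL-10 EVs against IL-10 cells (857 higher, 1169 lower), DESeq2 gave 1668 and 1933, a mean of 50 counts 749 lower, and a count in every library 519 lower. Leaving out 1 library at a time gave 0 to 1929 higher and 0 to 2622 lower, and with a count in every library 158, 153 and 189 higher and 36, 36 and 42 lower without cell library 1, 2 or 3, and 1095, 1107 and 1997 higher and 692, 601 and 1626 lower without EV library 1, 2 or 3. For the interaction with control (13, 21), DESeq2 gave 372 and 329, voom 0 and 1, all 24 libraries 38 higher, a count in every library 0 and 1, and leaving out a library 0 to 118 and 2 to 189. For LPS (329, 1831), a mean of 50 counts gave 721 lower, DESeq2 645 higher, voom 74 and 28, a count in every library 207 and 142, and leaving out a library 163 to 995 and 1262 to 3192. For TGF-β (0, 0), DESeq2 gave 170 and 248, all 24 libraries 1 and 8, and leaving out a library 0 to 82 and 0 to 144. For IL-10 EVs against control EVs (0, 0), DESeq2 gave 20 and 25 and all 24 libraries 539 and 374. For IL-10 cells against control cells (1447, 1286), library size scaling gave 776 and 3163, all 24 libraries 6 and 0, and leaving out a library 848 to 1329 lower. Siglece reversed to -0.62 (log2, interaction with LPS) without the third IL-10 EV library. Genes in IL-10 cells reduced to EV depth were 11989.5, 11910.1 and 12123, and the lysosomal share of IL-10 cells was 7.06% without structural RNAs in the denominator. Over the named genes, 3405 of these refits kept call and direction, 836 lost the call, 188 gained one and 1 reversed. The cause of these changes was not tested, beyond fewer samples or genes entering a fit.

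No paired analysis was possible because the columns match groups and not samples, and carry no number that ties an EV library to a cell library. Depth limits transcripts under about 0.348 to 0.648 CPM in IL-10 EVs.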
